A study of Homo sapiens with 15 samples.

Results

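Aminoacyl-tRNA synthetases join each amino acid to its own tRNA and so supply the ribosome with charged tRNA. The genes described here are 37 listed members of this family with its scaffold proteins, namely 19 cytosolic synthetases, 16 mitochondrial synthetases and the scaffold proteins AIMP1 and AIMP2. They are listed by name. Probes annotated to 35 of the 37 were found among the 18334 genes of the table, that is 18 cytosolic members, 16 mitochondrial members and AIMP1. CARS1 and AIMP2 were not analysed here.

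The study treated K562 cells, an established human erythroleukemia line, with 1 mM valproic acid, a fatty acid drug that inhibits histone deacetylases, and compared them with untreated K562 cells taken at the same time. RNA was collected after 2, 6, 10, 48 and 72 h, and treated and untreated RNA of a time were hybridised to the same 2-colour array, making 15 arrays, 3 for each time. Each replicate number stands for a separate thawing of this single line, and no other genotype or agent was used. The dye on treated RNA was Cy5, except in replicate 3, where it was Cy3.

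All values are log2 ratios of treated over untreated RNA, so a negative value means less RNA in treated cells. Array medians over all probes lay between −0.00522 and 0.0169. A fitted ratio comes from a limma model with 5 time means and a dye term, and its error is the SE of that model. Calls rest on an adjusted p, taken over all genes, below 0.05. Because the fit removes the dye term, it can differ from the plain mean of the 3 arrays. The table holds no signal intensities, so levels are not given and the markers of K562 cells could be read as ratios only. Of 7 measured, 5 were lower at 6 h (9.66% of all genes), among them KLF1, an erythroid transcription factor (−0.71 ± 0.09). At 72 h 2 were lower and 1 higher (13.6% and 22.1% of all genes), and the 7 ratios lay between −0.50 and 0.62. Of 5 marker genes of other blood cells, CD3D, a part of the T cell receptor, was higher at 72 h (1.57 ± 0.12, adjusted p = 5.58e-07) and the other 4 were not called. Its part in the results was not tested. In RNA of a whole culture, fewer cells of a kind and less RNA per cell cannot be told apart.

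Cytosolic synthetases charge tRNA for translation of nuclear genes, while the mitochondrial enzymes, also encoded in the nucleus, serve the few proteins made inside the organelle. GARS1 and KARS1 make the enzyme of both compartments. Several cytosolic enzymes are held in a multi-synthetase complex by the scaffold proteins. Many cytosolic synthetase genes are known targets of ATF4, a transcription factor induced when amino acids are scarce or the endoplasmic reticulum is stressed.

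Counted in either direction over all 35 measured genes, 1 was called at 2 h (6.35% of all genes), 13 at 6 h (28.7%), 17 at 10 h (29.7%), 20 at 48 h (37.9%) and 23 at 72 h (35.8%). None differed by 2-fold or more at any time.

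The cytosolic synthetase genes were lower mainly from 10 h on. At 2 h limma called 0 of the 18 in either direction (1.53% of all genes were lower and 4.82% higher), with an unadjusted p under 0.05 for 2. At 6 h 2 were lower and 3 higher (9.66% of all genes lower, 19% higher), and at 10 h 8 and 1 (11.6% lower, 18.1% higher). By 10 h 16 of the 18 were below 0, with a median log2 ratio of −0.23. At 48 h 11 were lower and 1 higher (14.6% lower, 23.3% higher), with a median log2 ratio of −0.34. At 72 h 15 were lower and 1 higher (13.6% lower, 22.1% higher), and the median was again −0.34, against 0.01 over all genes. The count at 72 h was 9 without replicate 2 at all times, and the count at 48 h was 6 without 48 h replicate 3 and 7 with arrays scaled to the same spread. The count at 10 h was 4 or 5 without any 1 of the 10 h arrays. At 6 h the number lower was 0 without 6 h replicate 2 and 1 without 6 h replicate 1 or 3, and the number higher was 1 without 6 h replicate 2 or 3.

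**Figure D1:**
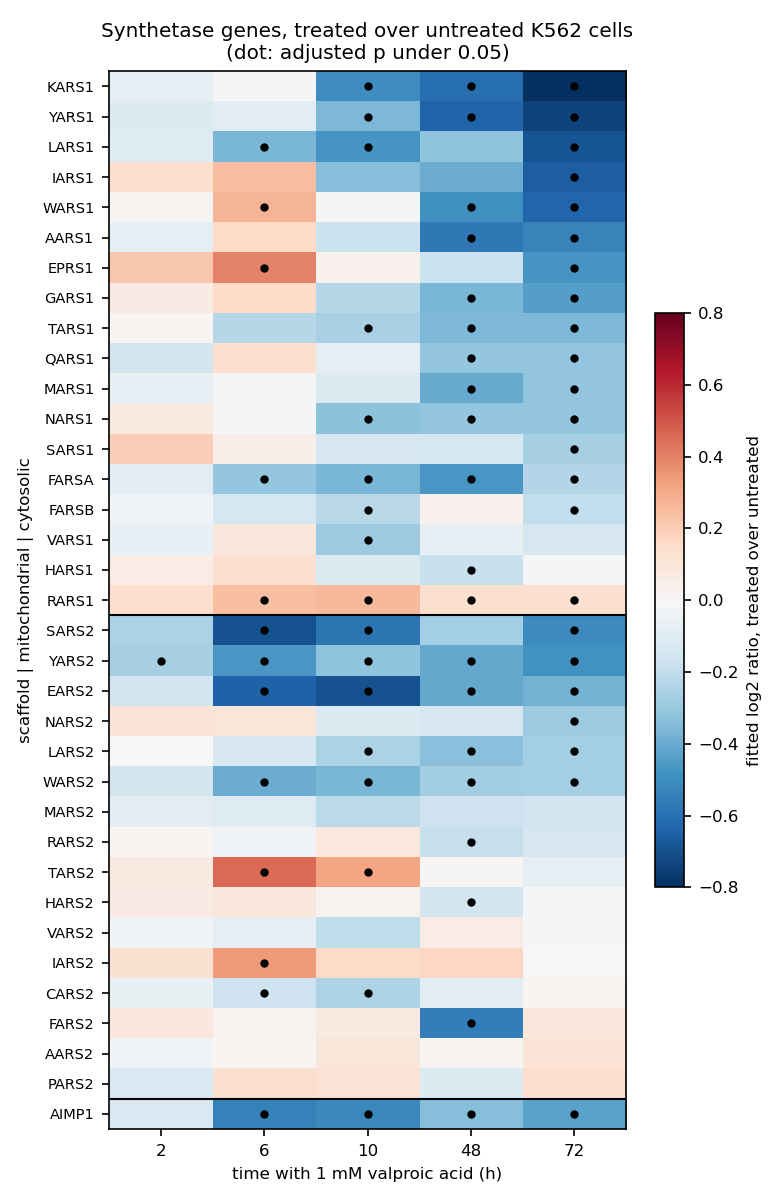
Fitted log2 ratio of treated over untreated RNA for each of the 35 measured genes (rows, ordered within each compartment by the value at 72 h) at 2 to 72 h (columns); blue is lower and red is higher in treated cells, and a dot marks an adjusted p under 0.05. The cytosolic block turns blue from 10 to 72 h, while the deepest blue at 6 h lies in SARS2, EARS2, AIMP1 and YARS2.

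KARS1, which charges lysine tRNA, had the lowest ratio of all members at 72 h. Its arrays read −0.76, −0.69 and −0.57 at 48 h, and −0.72, −1.15 and −0.72 at 72 h. All 6 were below 0, although replicate 3 had been at 0.49 at 6 h, when replicates 1 and 2 were at −0.43 and −0.32. The fit gave −0.50 ± 0.10 at 10 h (adjusted p = 0.00214), −0.60 at 48 h and −0.80 at 72 h (0.576 of the untreated level, adjusted p = 4.43e-05).

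YARS1, the tyrosine enzyme, read −0.89, −0.71 and −0.54 at 48 h, and −0.81, −1.12 and −0.50 at 72 h. Every array from 10 h on was below 0. The fitted ratio was −0.36 ± 0.07 at 10 h, −0.64 at 48 h and −0.74 at 72 h (adjusted p = 5.34e-06). AARS1, the alanine enzyme, was spread more widely at 72 h, with −0.69, −1.11 and −0.06 on the arrays and −0.53 ± 0.10 in the fit (adjusted p = 0.00128). At 48 h its arrays were close to each other at −0.68, −0.73 and −0.57, and the fit gave −0.57 (adjusted p = 0.000748).

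WARS1, the tryptophan enzyme, which interferon also induces in many cells, changed direction. Its arrays at 6 h were 0.31, 0.25 and 0.31, all above 0, and those at 72 h were −0.32, −0.83 and −0.69, all below 0. The fitted ratio was 0.27 ± 0.08 at 6 h (adjusted p = 0.0271), −0.49 at 48 h (adjusted p = 0.000472) and −0.63 at 72 h (adjusted p = 7.05e-05). The call at 6 h ended when any 1 of the 6 h arrays was left out, with adjusted p between 0.0586 and 0.242.

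EPRS1, a fused enzyme for glutamate and proline, was the other member with a call in each direction. It read −0.03, 0.37 and 0.71 at 6 h, so that the arrays did not share a sign, and −0.42, −0.80 and −0.33 at 72 h. The fit gave 0.39 ± 0.10 at 6 h (adjusted p = 0.0114) and −0.47 at 72 h (adjusted p = 0.00286). The value at 6 h was 0.17 without replicate 3 at all times (adjusted p = 0.429) and 0.34 without 6 h replicate 2 (adjusted p = 0.0888), and neither was called. Without replicate 2 at all times the value at 72 h just missed the threshold, with adjusted p = 0.0507.

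LARS1 and IARS1, the leucine and isoleucine enzymes, were lower at 72 h, with a larger SE in the fit than the members described above. LARS1 read −0.50, −0.95 and −0.57 at 72 h (fit −0.69 ± 0.12, adjusted p = 0.000562) and was already lower at 10 h (−0.47, adjusted p = 0.00913), a call lost without 10 h replicate 1 or 3. IARS1 had the largest SE of the members, 0.20; it read −0.47, −0.92 and −0.45 at 72 h (fit −0.66, adjusted p = 0.0188) but 0.29, −0.54 and −0.63 at 10 h, where the arrays disagreed in sign. Its call at 72 h was lost without 72 h replicate 1 or 2 or without replicate 2 or 3 at all times, with adjusted p of at most 0.159.

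Smaller late decreases were found in further cytosolic members. GARS1 for glycine, TARS1 for threonine, QARS1 for glutamine, MARS1 for methionine and NARS1 for asparagine lay between −0.44 and −0.31 at 72 h and were called at 48 h as well. Without 48 h replicate 3 the calls at 48 h were lost for GARS1 (−0.21, adjusted p = 0.289), NARS1 (adjusted p = 0.249), QARS1 (adjusted p = 0.217) and TARS1 (adjusted p = 0.0686), and that of MARS1 was kept in all alternatives run. At 72 h the call was lost without 72 h replicate 2 for MARS1, NARS1 and QARS1, without 72 h replicate 1 for NARS1 and without 72 h replicate 3 for QARS1. SARS1 for serine read −0.15, −0.45 and −0.15 at 72 h, with a fit of −0.26 ± 0.07 (adjusted p = 0.00639), and was not called without 72 h replicate 2 (−0.15, adjusted p = 0.0568). FARSA and FARSB are the subunits of the phenylalanine enzyme, and their calls differed: FARSA was lower at 6, 10, 48 and 72 h, with −0.46 ± 0.07 at 48 h (adjusted p = 0.000221), while FARSB was at 0.03 at 48 h (−0.07, 0.02 and 0.08 on the arrays) and lower at 10 h (−0.22) and 72 h (−0.20) only. The difference between the subunits was not tested. Without 72 h replicate 3 neither was called at 72 h, with −0.12 for FARSA (adjusted p = 0.395) and −0.09 for FARSB (adjusted p = 0.475), and the call of FARSB at 10 h was lost without 10 h replicate 1 or 2.

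RARS1, the arginine enzyme, was the only cytosolic member with a ratio above 0 at every time. On the arrays of 6 h it read 0.20, 0.29 and 0.23. Those of 10 h gave 0.25, 0.27 and 0.26, and those of 72 h 0.15, 0.17 and 0.06. These values were small but agreed closely between arrays. The fit gave 0.24 ± 0.04 at 6 h (adjusted p = 0.000626), 0.26 at 10 h (adjusted p = 0.000346), 0.13 at 48 h and 0.13 at 72 h (adjusted p = 0.0277). The calls at 48 and 72 h were lost in several alternatives, among them without 48 h replicate 2 or 3 and without 72 h replicate 1 or 2, and those at 6 and 10 h were lost in none of the alternatives run.

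VARS1 and HARS1, the valine and histidine enzymes, were the cytosolic members not called at 72 h. VARS1 was called at 10 h only (−0.29 ± 0.10, adjusted p = 0.0385), where its arrays were −0.44, −0.70 and 0.10. That call was lost in 7 of 12 settings, with −0.17 without 10 h replicate 2 (adjusted p = 0.269). HARS1 was called at 48 h only (−0.18 ± 0.05, adjusted p = 0.0119). The starts of HARS1 and its mitochondrial counterpart HARS2 lie 85 bases apart on chromosome 5 on opposite strands (GRCh38.p14, RefSeq). HARS2 likewise was called at 48 h only, at −0.15 ± 0.05 (adjusted p = 0.0180), and both were near 0 at 72 h, with −0.01 for HARS1 and −0.02 for HARS2. Both calls at 48 h were lost without 48 h replicate 1 or 3, and that of HARS2 also without 48 h replicate 2.

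**Figure D2:**
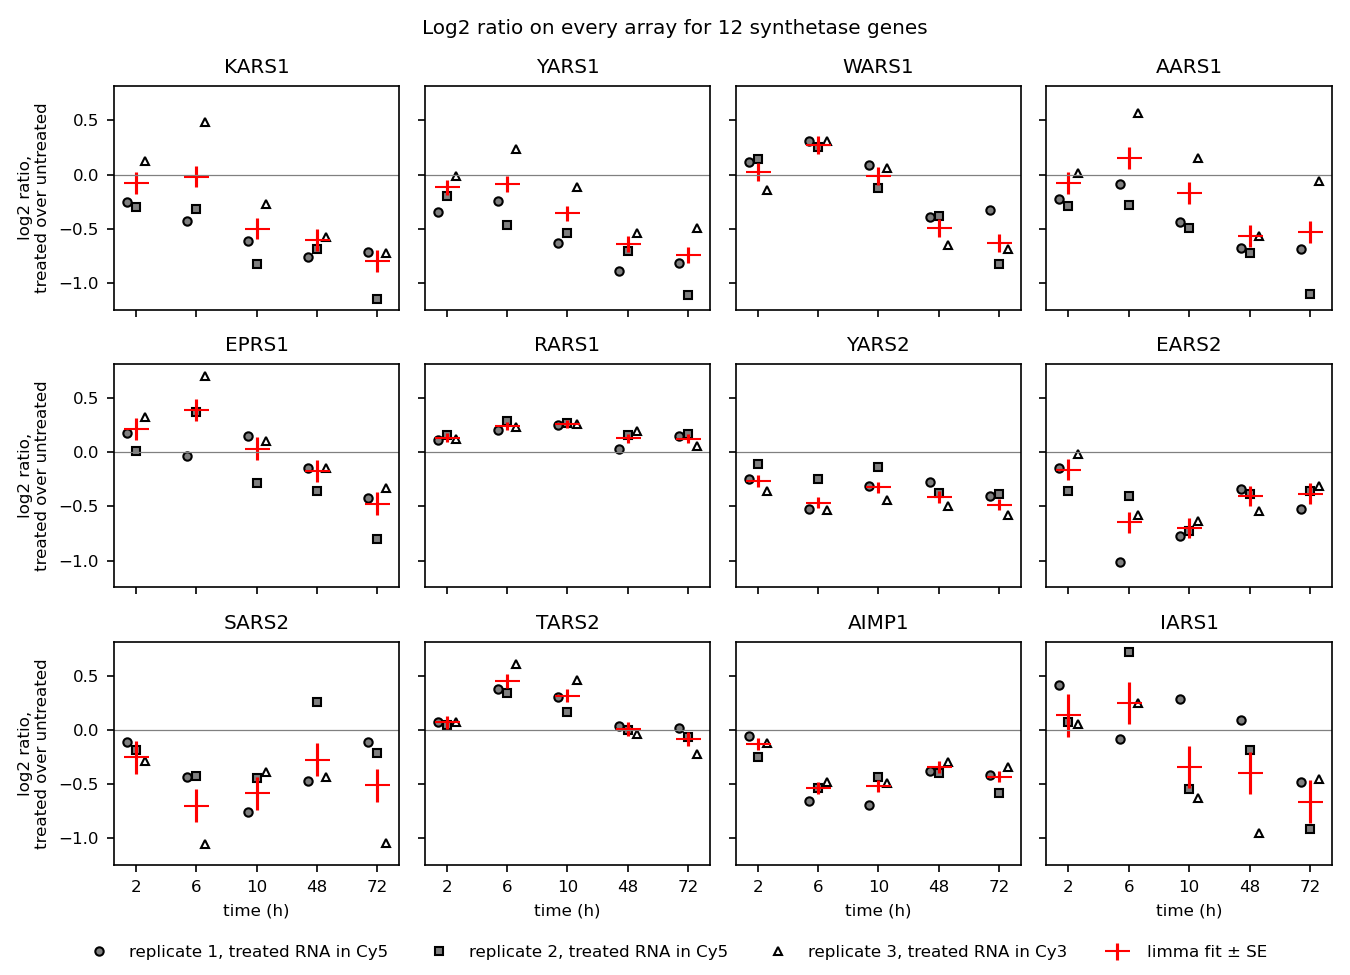
Log2 ratio of treated over untreated RNA on each of the 15 arrays (y axis) by time in h (x axis) for 12 genes, with circles, squares and triangles for replicates 1, 2 and 3 and a red bar for the limma fit ± SE. KARS1, YARS1, WARS1 and AARS1 lie below 0 on all arrays at 48 and 72 h, RARS1 lies above 0 on all 15 arrays, and triangles of KARS1 and AARS1 stand above the other replicates at 6 h.

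Replicate 3, the thawing with exchanged dyes, stood apart at the early times, for these genes and over the whole array. At 2 h it correlated with the mean of replicates 1 and 2 at −0.09 over all probes and 0.54 over all genes. Replicates 1 and 2 correlated at 0.67 over all genes. At 6 h the values over all genes were 0.72 and 0.83, and at 72 h 0.81 and 0.73. The median of the 18 cytosolic members on the arrays at 6 h was −0.09, −0.18 and 0.24 in replicates 1, 2 and 3, and at 72 h it was −0.40, −0.57 and −0.23. The dye term, which also takes up whatever else is particular to the third thawing, passed for 11 of the 35 members (20.1% of all genes), and in 10 of these it ran towards lower ratios with Cy5 on the treated RNA. It was −0.26 for AARS1, −0.21 for KARS1 and −0.20 for YARS1. Dye and thawing cannot be told apart. With replicate 3 left out at all times, the ratios of KARS1, YARS1, WARS1 and AARS1 at 48 and 72 h kept their calls. That fit has no dye term, because treated RNA is then in Cy5 on every array. Any effect of the dye stays in those ratios, so the kept calls cannot separate treatment from dye.

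The mitochondrial synthetases had fewer late calls, and their difference from the cytosolic ones was not tested. Of the 16, the number lower was 1 at 2 h (1.53% of all genes), 5 at 6 h (9.66%), 6 at 10 h (11.6%), 7 at 48 h (14.6%) and 6 at 72 h (13.6%). The number higher was 0 at 2 h (4.82% of all genes), 2 at 6 h (19%), 1 at 10 h (18.1%), 0 at 48 h (23.3%) and 0 at 72 h (22.1%). The number lower was 3 at 6 h without 6 h replicate 3, and 4 at 48 h without 48 h replicate 1 or 3. The number higher was 1 at 6 h without 6 h replicate 2 or 3, 0 at 10 h without 10 h replicate 3 and 2 without 10 h replicate 2, and 1 at 72 h without 72 h replicate 1. At 2 h an unadjusted p under 0.05 was found for 2. At 48 and 72 h limma thus called 0 higher, with 4 of the 16 above 0 at each time. Counted in either direction, its unadjusted p was under 0.05 for 7 at 48 h and 8 at 72 h, the genes called lower among them. The median at 72 h was −0.11. Of the 6 lower at 72 h, EARS2, SARS2, WARS2 and YARS2 had also been lower at 6 h, the call of SARS2 at 72 h resting on 72 h replicate 3.

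YARS2, the mitochondrial tyrosine enzyme, was the only member called at all 5 times. The arrays of 2 h read −0.24, −0.11 and −0.36. Those of 72 h gave −0.40, −0.39 and −0.58, and all 15 arrays were below 0. The fit gave −0.26 ± 0.05 at 2 h (adjusted p = 0.00850), −0.46 at 6 h (adjusted p = 3.99e-05) and −0.48 at 72 h (adjusted p = 1.24e-05). The call at 2 h was lost without 2 h replicate 1 or 3 and without the dye term.

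EARS2, the mitochondrial glutamate enzyme, had arrays of −1.01, −0.40 and −0.57 at 6 h. The arrays of 72 h were −0.52, −0.36 and −0.31. It was below 0 on every array and lowest early, with fits of −0.65 ± 0.09 at 6 h (adjusted p = 0.000234), −0.70 at 10 h (adjusted p = 0.000118), −0.41 at 48 h and −0.38 at 72 h (adjusted p = 0.00621). SARS2, the mitochondrial serine enzyme, had the lowest ratio of all members at 6 h but scattered, with −0.44, −0.42 and −1.05 on the arrays at 6 h and −0.11, −0.21 and −1.04 at 72 h. Its fit was −0.70 ± 0.15 at 6 h (adjusted p = 0.00376), which was not called without 6 h replicate 3 (adjusted p up to 0.0690). Its call at 72 h (−0.51) was lost without 72 h replicate 3 (−0.27, adjusted p = 0.342), and that of EARS2 at 48 h without 48 h replicate 3 (adjusted p = 0.0958).

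WARS2, the mitochondrial tryptophan enzyme, was lower at 6, 10, 48 and 72 h, from −0.40 ± 0.05 at 6 h (adjusted p = 5.57e-05) to −0.27 at 72 h (adjusted p = 0.000635). Its arrays at 6 h were close, at −0.43, −0.43 and −0.34. Its 2 probes disagreed in size: at 6 h the first gave −0.74 and the second −0.06, and at 72 h −0.52 and −0.02. LARS2 was lower at 10, 48 and 72 h, with −0.34 ± 0.05 at 48 h (adjusted p = 0.000285), and CARS2 at 6 and 10 h, with −0.25 ± 0.05 at 10 h (adjusted p = 0.00118). The call of CARS2 at 6 h was lost without 6 h replicate 2 or 3, and that of LARS2 at 10 h without 10 h replicate 3. Others were called at a single time: NARS2 at 72 h (−0.29), RARS2 at 48 h (−0.18) and FARS2, the phenylalanine enzyme, at 48 h. FARS2 was among the 4 lowest members at 48 h (−0.55 ± 0.18, adjusted p = 0.0291), but its arrays there were −0.67, −0.01 and −0.80, and at 72 h they were −0.29, 0.82 and −0.09. The call of NARS2 was lost when any 1 of the 72 h arrays was left out (adjusted p up to 0.184), that of FARS2 without 48 h replicate 1 or 3 (adjusted p up to 0.193) and that of RARS2 without 48 h replicate 1 or 2 (adjusted p up to 0.129).

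TARS2 and IARS2 rose early. TARS2, the mitochondrial threonine enzyme, read 0.38, 0.34 and 0.61 at 6 h and 0.30, 0.16 and 0.46 at 10 h, all above 0, and 0.02, −0.07 and −0.22 at 72 h. The fit gave 0.45 ± 0.06 at 6 h, the highest of all members (adjusted p = 0.000168), 0.32 at 10 h (adjusted p = 0.00185), 0.01 at 48 h and −0.08 at 72 h. IARS2 read 0.24, 0.57 and 0.34 at 6 h (fit 0.34 ± 0.09, adjusted p = 0.0144), a call lost without 6 h replicate 2 or 3, and that of TARS2 at 10 h was lost without 10 h replicate 3 (adjusted p = 0.0566). AARS2, MARS2, PARS2 and VARS2 were called at no time, and at 72 h they lay between −0.16 and 0.13. PARS2 had the highest ratio of all members at 72 h, with −0.03, 0.28 and 0.19 on its arrays, and AARS2 read 0.06, 0.00 and 0.21. At 48 h the highest ratio was that of IARS2 (0.37, 0.33 and −0.07 on the arrays), and VARS2 read −0.11, 0.23 and 0.01, and neither passed.

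AIMP1, the scaffold protein of the complex, fell early and stayed lower. It read −0.65, −0.53 and −0.48 on the arrays of 6 h. The arrays of 72 h gave −0.42, −0.58 and −0.34, and all 15 arrays were below 0. The fit gave −0.54 ± 0.05 at 6 h (adjusted p = 1.88e-05) and −0.43 at 72 h (adjusted p = 5.19e-05). Its 2 probes gave −0.58 and −0.50 at 6 h and −0.44 and −0.41 at 72 h. The measured enzymes of the complex were EPRS1, IARS1, KARS1, LARS1, MARS1, QARS1 and RARS1. Of these, LARS1 was lower at 6 h and EPRS1 and RARS1 were higher (9.66% of all genes lower, 19% higher). Their difference from AIMP1 was not tested, and the call of LARS1 at 6 h was lost when any 1 of the 6 h arrays was left out (adjusted p up to 0.159). At 72 h 7 of the 8 measured genes of the complex were lower and RARS1 was higher (13.6% of all genes lower, 22.1% higher).

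Probes of the same gene disagreed for other members too. Of the 12 members with 2 probes, 10 had probes of opposite sign at 1 time or more. Those of AARS2 differed in sign at all 5 times, with −0.01 and 0.23 at 72 h. The call of RARS2 at 48 h averages probes at −0.07 and −0.30. The gap was widest for WARS2 (0.678), LARS1 (0.520, at 48 h, where the probes gave −0.06 and −0.58) and SARS1 (0.408, at 72 h, with −0.06 and −0.47). The probes of SARS1 correlated at −0.30 over the 15 arrays and those of WARS2 at −0.08, as a description of these arrays. All values given per gene are means of its probes.

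Whether a response differed between early and late times was tested as a contrast, in which the mean over 2, 6 and 10 h was taken from that over 48 and 72 h. Of the 35 members 14 moved down and 1 up by this contrast, where 11% of all genes moved down and 14.9% up. Of these 14, 10 were cytosolic. The lowest values were those of WARS1 (−0.66 ± 0.08, adjusted p = 4.46e-05), IARS1 (−0.54 ± 0.18, adjusted p = 0.0395), EPRS1 (−0.54 ± 0.09, adjusted p = 0.000983) and AARS1 (−0.52 ± 0.09, adjusted p = 0.00127). YARS1 and KARS1 each stood at −0.50. The call of IARS1 was lost without the dye term, with scaled arrays and with many single arrays left out, with adjusted p of at most 0.177. At the other end CARS2 moved up (0.12 ± 0.04, adjusted p = 0.0434), which was not called with the thawing as a replicate block (adjusted p = 0.0527) or with any of several arrays left out. VARS2 (0.12), SARS2 (0.12) and EARS2 (0.11) did not pass. CARS2 read −0.41, −0.31 and −0.12 at 10 h, against −0.08, −0.06 and 0.08 at 72 h. Without replicate 3 at all times 6 members moved down instead of 14, of which 5 were cytosolic.

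Members are grouped here by the same early and late means that are quoted, and no test separates the groups. Among those lower late, AARS1, GARS1, IARS1, QARS1, SARS1, EPRS1 and WARS1 had an early mean between −0.03 and 0.21 and a late mean between −0.56 and −0.20. EARS2, LARS1, SARS2, WARS2, YARS2 and AIMP1 had an early mean between −0.51 and −0.31 and a late mean between −0.50 and −0.27, and none of these 6 was called by the contrast. Other members lower late, among them KARS1, YARS1, FARSA, TARS1 and LARS2, had early means between these ranges. A moderated F test over the 5 times passed for 12 of the 35 members (23.3% of all genes), with the lowest adjusted p in WARS1 (0.000530) and YARS1 (0.00109).

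**Figure D3:**
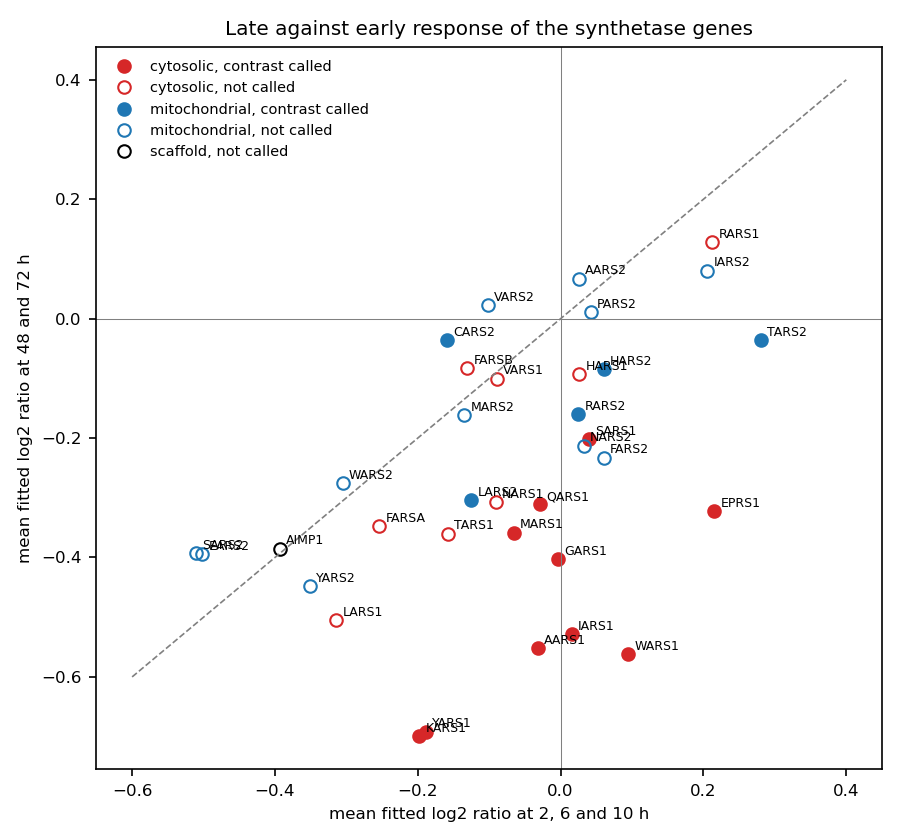
Mean fitted log2 ratio at 48 and 72 h (y axis) against the mean at 2, 6 and 10 h (x axis) for the 35 members; filled points passed the late minus early contrast and the dashed line marks equal values. Cytosolic members such as WARS1, AARS1 and IARS1 lie near 0 on the x axis and far below the line, while EARS2, SARS2 and AIMP1 lie close to the line at the left.

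Cytosolic synthetases often listed as targets of ATF4 were set beside the others. Of the 12 measured, 8 moved down from early to late and 11 were lower at 72 h, with a median of −0.46 at 72 h. Over all genes 11% moved down and 13.6% were lower at 72 h. Of the other 6 cytosolic synthetases, namely FARSA, FARSB, HARS1, KARS1, QARS1 and RARS1, 2 moved down and 4 were lower at 72 h, with a median of −0.22. VARS1 was the listed gene not lower at 72 h. The difference between the 2 sets was not tested.

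Other genes of the amino acid response to ATF4 were counted beside the synthetases, with no test between the lists. Of 30 measured, 11 were higher and 3 lower at 6 h (19% and 9.66% of all genes), and 5 were higher and 5 lower at 10 h (18.1% and 11.6%). At 72 h 1 was higher and 20 were lower (22.1% and 13.6%), and 21 moved down from early to late (11%). At 6 h PHGDH, the first enzyme of serine synthesis, was at 0.75 (adjusted p = 0.00859), CTH, which makes cysteine, at 0.65, and PSAT1, which acts after PHGDH, at 0.55 (adjusted p = 0.000509). The genes of this list named for 6 h were all higher, although the 30 ratios lay between −0.82 and 0.75. At 48 h ASNS, the asparagine synthetase, was at −1.24 (adjusted p = 3.63e-06), TRIB3, a pseudokinase induced by stress, at −1.07, PCK2, a mitochondrial enzyme of gluconeogenesis, at −0.93, and PSAT1 at −0.73. At 72 h CTH was at −0.85 and PCK2 at −0.83. Neither was the lowest, as the 30 ratios lay between −0.999 and 0.47 at 72 h. The number higher at 6 h was 3 without replicate 3 at all times, 4 without 6 h replicate 1 or 3 and 6 without 6 h replicate 2. At 10 h the number higher was 2 without 10 h replicate 1 and 1 without 10 h replicate 3, the number lower was 3 without 10 h replicate 1, and the number lower at 72 h was 13 without replicate 2 or 3 at all times or without 72 h replicate 3. ATF4 itself was lower at 6 h (−0.48 ± 0.07, adjusted p = 0.000303), 10 h (−0.47) and 48 h (−0.34) and was at −0.11 at 72 h (adjusted p = 0.263). The relation of ATF4 RNA to these genes was not tested. MYC, a transcription factor that drives growth, was lower at 2 h (−0.92 ± 0.11, adjusted p = 0.000315) and 72 h (−0.51, adjusted p = 0.00341).

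**Figure D4:**
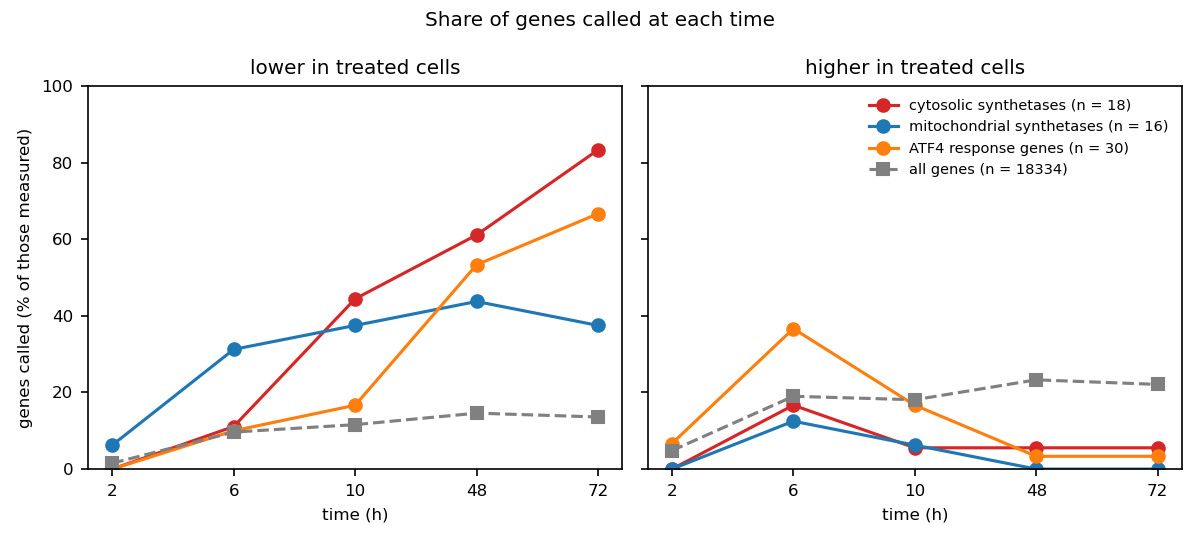
Share of measured genes called lower (left) and higher (right) in treated cells, in percent (y axis), at each time in h (x axis), for 18 cytosolic synthetases, 16 mitochondrial synthetases, 30 ATF4 response genes and all 18334 genes. The cytosolic share called lower reached 83.3% at 72 h, against 37.5% of the mitochondrial synthetases and 13.6% of all genes.

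Promoters were searched for a short element that ATF4 is known to bind, TGATGNAA, where N is any base. RefSeq windows from 250 bases before to 50 after the start (GRCh38.p14) were found for 32 of the 37 listed genes, and both strands were read. The element was present in 7 of the 16 cytosolic members with a window and 1 of 14 mitochondrial members, and in 4.46% of all 27305 genes with a window (3.62% of all 35116 windows). It was also in 8 of 26 ATF4 response genes. The matches in the 7 measured members are shown with 20 bases on each side (fewer beyond base 30 after the start). The element is in capitals, and reads as its reverse complement in AARS1, GARS1, IARS1, MARS1 and TARS1.
AARS1: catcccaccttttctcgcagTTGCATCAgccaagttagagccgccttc
GARS1: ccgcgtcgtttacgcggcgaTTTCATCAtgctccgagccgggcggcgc
IARS1: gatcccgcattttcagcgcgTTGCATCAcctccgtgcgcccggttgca
MARS1: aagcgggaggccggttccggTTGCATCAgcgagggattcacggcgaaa
NARS1: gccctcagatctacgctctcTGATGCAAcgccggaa
TARS1: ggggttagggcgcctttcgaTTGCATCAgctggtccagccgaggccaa
YARS2: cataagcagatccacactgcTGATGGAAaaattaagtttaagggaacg

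These stretches lie at chr16:70289666-70289713 (minus strand) for AARS1, chr7:30594825-30594872 (plus strand) for GARS1, chr9:92293683-92293730 (minus strand) for IARS1 and chr12:57488044-57488091 (plus strand) for MARS1. Those of NARS1, TARS1 and YARS2 lie at chr18:57621807-57621842 (minus strand), chr5:33440947-33440994 (plus strand) and chr12:32756067-32756114 (minus strand). Counted from the start, the element began at base −187 in AARS1, −33 in GARS1, −13 in IARS1, −4 in MARS1, 3 in TARS1, 15 in NARS1 and −197 in YARS2.

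The 6 measured cytosolic members with the element had a median ratio of −0.40 at 72 h and −0.35 for late minus early, and all 6 were lower at 72 h. The 9 measured cytosolic members with a window and no match had medians of −0.26 and −0.24, and 7 were lower at 72 h, among them KARS1 and WARS1. Over all genes 13.6% were lower at 72 h. YARS1, LARS1 and VARS1 had no window and are in neither group, with −0.74, −0.69 and −0.14 at 72 h. The difference between the groups was not tested. YARS2, the mitochondrial gene with the element, was lower from 2 h on. A match is a description of the letters in the window, and no binding was measured. The E-box CACGTG, a site that MYC and related factors can bind, was in 1 of 16 cytosolic members (IARS1), 3 of 14 mitochondrial members (CARS2, EARS2 and MARS2) and 8.78% of all genes with a window.

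Genes that handle tRNA before and after charging were counted from lists chosen by role. Of 57 measured genes of tRNA processing and modification, 28 were lower and 2 higher at 6 h (9.66% and 19% of all genes), and 22 were lower and 6 higher at 72 h (13.6% and 22.1%). Their median was −0.22 at 6 h and −0.18 at 72 h. At 6 h DUS3L, a dihydrouridine synthase, was at −0.91 (adjusted p = 2.19e-05) and METTL1, which methylates guanosine in tRNA, at −0.81 (adjusted p = 1.13e-05), and at 72 h TRMT11 was at −0.97 and WDR4, the partner of METTL1, at −0.91. Of 20 measured genes of other tRNA charging and delivery steps, 5 were lower and 3 higher at 6 h (9.66% and 19% of all genes). At 72 h 7 were lower and 0 higher (13.6% and 22.1%), with 4 of the 20 above 0. Counted in either direction, limma's unadjusted p was under 0.05 there for 11, the 7 called lower among them. Those lower at 72 h included the elongation factor genes EEF1B2 (−0.64, adjusted p = 3.70e-05) and EEF1A1 (−0.39, adjusted p = 0.00173), and XPOT, which exports tRNA from the nucleus (−0.58, adjusted p = 0.000765).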

How the data were processed

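The authors deposited 1 table of normalized log2 ratios of treated over untreated RNA for 15 arrays. The base of the logarithm is not stated and was read as 2. Background correction and normalization are not given in the sources used here, limma is named in the submitters' processing notes without a version, and intensities were not used here. The direction of the ratios was taken from the labels.

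Of 45220 probes, 31332 had 1 gene symbol in the platform annotation, 93 had several and 13795 had none. Symbols were updated through gene IDs (31291 probes), and probes of a gene were averaged, giving 18334 genes. limma 3.58.1 in R 4.3.3 fitted 5 time means and a dye term to all 15 arrays (9 residual degrees of freedom), with Benjamini-Hochberg adjustment over all genes. The method was tested on simulated data. The median SE of a gene was 0.0602, and precision is limited by how many arrays there are.

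The members and lists were chosen with earlier results of these data known. Single arrays are given for the 4 highest and 4 lowest members at 6, 48 and 72 h and in the late minus early contrast, and at most 4 called genes a time are named from each comparison list. A replicate number marks a thawing, per the labels. With the dye term in the fit, mean correlations of same-numbered residuals were −0.0573, −0.0526 and −0.243. Alternatives were no dye term, scaled arrays, array weights, the median of probes, the thawing as a fixed or random block, and arrays left out. Without replicate 3 at all times the fit has no dye term.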

Additional observations from a re-analysis of the deposited data

Results flagged for a closer look

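The response at 48 and 72 h differed from that at 2, 6 and 10 h, by limma's test of the difference itself, for 15 of the 35 members (25.9% of all genes). Among cytosolic members the late minus early log2 difference was −0.66 for WARS1, −0.54 for EPRS1, −0.54 for IARS1, −0.52 for AARS1 and −0.50 for both KARS1 and YARS1. It was −0.40 for GARS1, −0.29 for MARS1, −0.28 for QARS1 and −0.24 for SARS1. Among mitochondrial members it was −0.32 for TARS2, −0.18 for LARS2, −0.18 for RARS2, −0.14 for HARS2 and 0.12 for CARS2.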

How the results depend on the processing

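Of 89 calls of members over the 5 times and the late minus early contrast, 38 were kept under every one of the 24 settings, and none reversed. At 2 h the number lower was 1, with 0 without the dye term, 3 with scaled arrays and 4 with array weights, and the number higher was 0, with 3 with scaled arrays and 2 with array weights. The number higher was 1 at 48 h, at 72 h and in the contrast, and became 0 at 48 h with scaled arrays, 0 at 72 h with array weights, and 0 in the contrast without the dye term, with array weights or with the thawing as a fixed replicate block. That block changed no other call. With single arrays or replicates left out, the number lower was 0 to 1 at 2 h, 5 to 8 at 6 h, 10 to 13 at 10 h, 11 to 18 at 48 h, 15 to 18 at 72 h and 6 to 17 in the contrast. The number higher was 0 at 2 h, 2 to 4 at 6 h, 1 to 3 at 10 h, and 0 to 1 at 48 h, at 72 h and in the contrast. The lowest number at 48 h came without 48 h replicate 3, and that in the contrast without replicate 3. The cause was not tested. Counts for the cytosolic, mitochondrial and ATF4 lists under these settings were added after seeing the data. Array weights lay between 1.277 and 2.744 at 2 h and between 0.3919 and 0.7631 at 72 h, so an equal spread at all times may make p too large at 2 h and too small at 72 h.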
